A study of Mus musculus with 4 samples.

Results

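Dividing neutrophil precursors of mouse bone marrow were defined in 4 single-cell libraries as barcodes that carried both secondary granule transcripts and proliferation transcripts. Barcodes were kept that had 200 or more detected genes and no more than 10% of UMIs (unique molecular identifiers, the counted molecules) from mitochondrial genes. Among these, a member had Camp, Ngp and Ltf at 1% or more of its UMIs together, and at least 3 UMIs of Mki67 and Top2a together. The rule found 4430 members among 49567 kept barcodes of 51065 deposited. WT replicates 1 and 2 held 1260 and 978 of them, and YAP1 heterozygote replicates 1 and 2 held 1088 and 1104. The cells were flow-sorted nucleated marrow cells of 10-week-old mice, 2 libraries of WT mice and 2 of mice labelled YAP1 heterozygote. The labels do not describe the changed allele or the sort gates. The study concerns YAP1 and MYH9 in platelet formation, and its design text sets out to compare the abundance of cell types and their transcripts by genotype.

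Neutrophils mature in the marrow through ordered waves of granule protein synthesis. Promyelocytes make primary granule proteins such as myeloperoxidase and neutrophil elastase, myelocytes then switch to secondary granule proteins such as lactoferrin and cathelicidin, and gelatinase and other late proteins follow after the last division. The myelocyte is the last stage that divides, and C/EBP-epsilon (Cebpe) is the transcription factor known to drive the secondary granule genes. Camp encodes the cathelicidin precursor, Ngp a cathelicidin-related granule protein and Ltf lactoferrin, while Mki67 and Top2a encode a mitotic chromosome coat protein and the DNA topoisomerase of dividing cells.

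Where 4 values follow each other, they belong to WT replicate 1, WT replicate 2, YAP1 heterozygote replicate 1 and YAP1 heterozygote replicate 2, in this order. Levels are CPM, the UMIs of a gene per 1000000 UMIs of the population in a library, given as mean ± SD over the 4 libraries unless a genotype is named. They come from tags at the 3′ end, so a level carries no correction for gene length. The 3 granule genes that chose the members lie on chromosome 9 within 1.20 Mb of each other (GRCm38), Camp at 109847379 to 109849617, Ngp at 110419747 to 110423012 and Ltf at 111019271 to 111042767. Camp stood at 45541, 48766, 49353 and 50122 CPM. A member held a median of 837.5 to 969 Camp UMIs, 656 to 784.5 Ngp UMIs and 127 to 136 Ltf UMIs, by library. Its median count of Mki67 and Top2a together was 24, 29, 30 and 28 UMIs, well above the limit of 3. The members were chosen by these 5 genes, so the values are a description.

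The label was checked on genes outside the rule. Fcnb, which encodes the secreted lectin ficolin B and marks neutrophil precursors, had a UMI in 92.2% to 94.5% of the members of a library. In B cells of the same libraries (at least 5 UMIs of Cd79a and Cd79b, Camp, Ngp and Ltf under 1%) that share was 2.66% to 4.12%, at median depths of 2761 to 3272 UMIs against 17947 to 19581.5 in members. Fcnb stood at 1423 ± 58.4 CPM in members. The 8 megakaryocyte markers summed to 6.69 to 64.2 CPM, the 7 macrophage markers to 57.4 to 73.9 CPM, the 8 T and NK markers to 166 to 247 CPM and the 10 B lineage markers to 207 to 611 CPM. Of the members, 10, 12, 12 and 18 by library carried 1% or more of their UMIs in markers of another lineage. Stem and progenitor markers summed to 45.9 to 66.7 CPM, monocyte markers to 1416 to 1588 CPM, erythroid markers to 296 to 1448 CPM, mature neutrophil markers to 937 to 1372 CPM and dendritic cell markers to 621 to 665 CPM. Of the 4430 members, 1083 passed a stricter filter on other-type markers. It required fewer than 3 UMIs in each of the B lineage, T and NK, megakaryocyte, macrophage, basophil and mast, and plasma cell lists. Erythroid UMIs had to be under 1%. The monocyte, dendritic cell, stem and progenitor, and mature neutrophil lists were in neither this filter nor the 1% count of other lineages.

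The 4 libraries held 112806900 to 119855112 UMIs each, and the members 20401569 to 24316817 of them. A member had a median of 3214 to 3474.5 detected genes and 1.04% to 1.28% mitochondrial UMIs. Scrublet marked 7.17% to 7.94% of members as doublets, against 3.42% to 4.39% of kept barcodes. Marked members were left in for the main values, and results are given without doublets where that matters. Between libraries, 0 or 1 member barcodes were shared per pair of libraries. Members just above the granule limit (1% to 1.5%, 15 to 19 cells a library) had median primary granule shares of 2.25% to 3.45%, and dividing barcodes just below it (0.5% to 1%) had 2.76% to 3.86%. Members with exactly 3 UMIs of Mki67 and Top2a had median shares of G2 and mitosis transcripts of 0.772% to 0.925%, and granule cells with 2 such UMIs had 0.502% to 0.573%.

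Among barcodes past the granule limit, the dividing share was low at 1% to 2% Camp, Ngp and Ltf and higher from 10% to 12%. From 1% to 2% of UMIs, 10.7% to 13.8% of barcodes were members, by library. From 10% to 12% the shares were 38.6%, 39.7%, 42.4% and 41.0%. From 12% to 15% they were 30.6% to 37.0%. Members held more UMIs than non-dividing cells, which eases reaching 3 UMIs, so each barcode was also thinned to 2000 UMIs. The thinned shares were 2.27% to 4.17% in the lowest range, 20.4% to 23.0% from 10% to 12% and 16.4% to 21.8% from 12% to 15%. Both axes use genes of the rule.

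**Figure D1:**
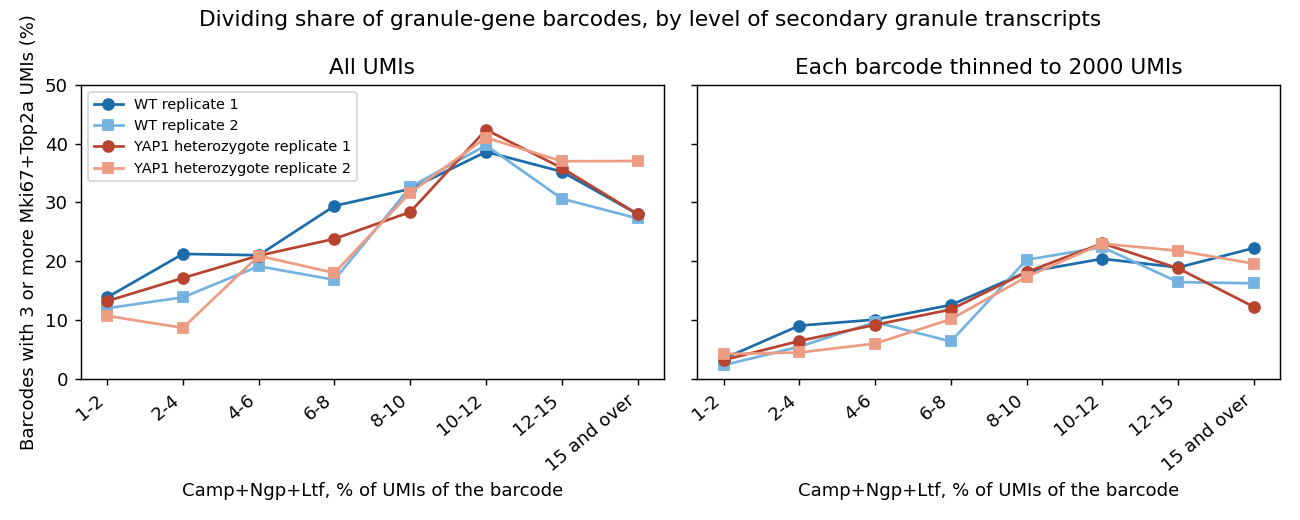
Percent of granule-gene barcodes with 3 or more Mki67 and Top2a UMIs (y axis) by their Camp, Ngp and Ltf share of UMIs (x axis), one line per library, with all UMIs (left) and after thinning to 2000 UMIs per barcode (right). In all 4 libraries the share from 10% to 12% is above that from 1% to 2%, 38.6% to 42.4% against 10.7% to 13.8% with all UMIs.

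Along the rule's own granule share, members differed in how much of the earlier, primary granule programme they carried. The members of each library were ranked by their Camp, Ngp and Ltf share and split into tertiles, 3 equal parts, with median shares of 5.57% to 7.02% in the lower tertile, 10.1% to 10.7% in the middle and 12.2% to 12.7% in the upper. Of 6973 genes with a mean of at least 10 CPM in one of the outer tertiles, 17 (0.244%) were at least 2-fold higher and 692 (9.92%) at least 2-fold lower in the upper than in the lower tertile in all 4 libraries. The ranking uses the rule's own genes, so these counts carry no test.

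Elane, neutrophil elastase, went from 5480 ± 646 CPM in the lower tertile to 396 ± 115 in the middle and 93.0 ± 16.1 in the upper. Mpo, myeloperoxidase, went from 1774 ± 352 to 60.9 ± 30.6 and 21.1 ± 6.24 CPM. Prtn3, proteinase 3, went from 4260 ± 394 to 426 ± 91.3 and 140 ± 13.1 CPM, and Ctsg, cathepsin G, from 667 ± 170 to 20.0 ± 5.27 and 9.58 ± 1.88 CPM. All 4 libraries had this order for each of these serine protease and peroxidase genes. Elane UMIs averaged 1.27 to 2.08 per cell in the upper tertile of a library and 35.9 to 54.8 over all its members. Of 12 measured primary granule genes, 10 were lower with each tertile in all 4 libraries, against 25.7% of all genes. Of the other pair, Lyz2, lysozyme M, was higher with each tertile in all 4 libraries.

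Secondary granule genes that the rule did not use went the other way. Of 16 such genes, 12 were higher with each tertile in all 4 libraries, against 3.13% of all genes. Lcn2, the siderophore-binding lipocalin, went from 6378 ± 944 to 15282 ± 1801 and 18491 ± 1250 CPM. Chil3, a chitinase-like secreted protein, went from 4539 ± 614 to 9022 ± 759 and 9791 ± 780 CPM. Orm1, an acute phase glycoprotein, and Ly6g, the surface antigen used to sort mouse granulocytes, had 144 ± 31.7 and 112 ± 6.30 CPM in the lower tertile and 363 ± 24.1 and 292 ± 22.2 CPM in the upper. Inhba, the activin A subunit, was at 58.5 ± 4.19 and 179 ± 15.6 CPM. Fcnb was the exception among the secondary granule genes, lower with each tertile in all 4 libraries, at 1781 ± 44.2, 1360 ± 104 and 1019 ± 73.7 CPM. The calprotectin genes S100a8 and S100a9 and the NADPH oxidase genes Cybb and Cyba were also higher with each tertile, S100a8 at 78314 ± 6849 CPM in the lower and 127470 ± 8286 CPM in the upper.

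**Figure D2:**
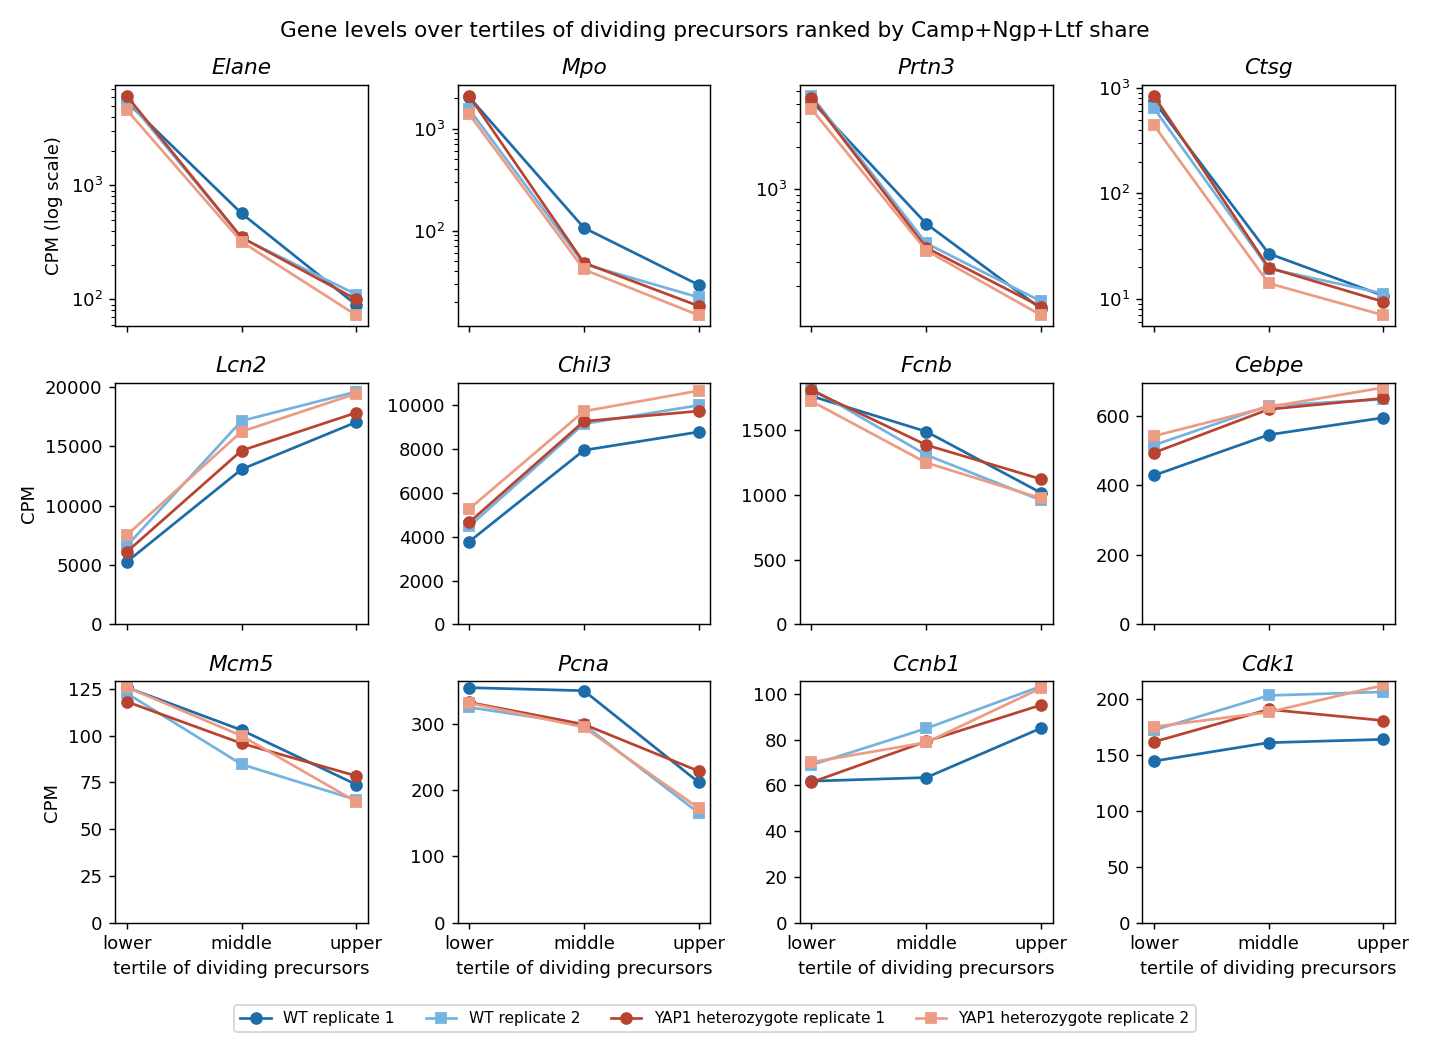
CPM of 12 genes in the lower, middle and upper tertile of members ranked by their Camp, Ngp and Ltf share, one line per library, on a log axis in the top row (primary granule genes) and linear axes from 0 below (granule genes and Cebpe, then S phase and mitosis genes). Elane is at 5480 ± 646 CPM in the lower and 93.0 ± 16.1 in the upper tertile, while Lcn2 is at 6378 ± 944 and 18491 ± 1250.

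Promoters of genes from these groups and from cell cycle groups are shown because the groups, as lists, differed in direction between the tertiles of members. The single genes shown need not follow their group. Ngp and Ltf ranked the members, Top2a was in the rule, and Fcnb was lower with each tertile. Cdk1 was not among the G2 and mitosis genes higher with each tertile in all 4 libraries. Each line gives the bases before the annotated start on the gene's own strand (RefSeq, GRCm38.p6), shortened where the GENCODE gene starts earlier. Capitals mark matches on either strand to TTGCNNAA (a C/EBP motif), CCAAT (the NF-Y box), TTTGAA (the cell cycle homology region, CHR) and TTTCCCGC or TTTGGCGC (E2F). The first 3 are secondary granule genes (Ngp at chr9:110419558-110419746, plus strand, Ltf at chr9:111019042-111019270, plus, and Fcnb at chr2:28084886-28085128, minus) and Elane is a primary granule gene (chr10:79886062-79886246, plus). Mcm5, a subunit of the replicative helicase, is an S phase gene (chr8:75109259-75109508, plus). Top2a (chr11:99024190-99024439, minus) and Cdk1, the mitotic kinase (chr10:69352939-69353162, minus), are G2 and mitosis genes.
Ngp: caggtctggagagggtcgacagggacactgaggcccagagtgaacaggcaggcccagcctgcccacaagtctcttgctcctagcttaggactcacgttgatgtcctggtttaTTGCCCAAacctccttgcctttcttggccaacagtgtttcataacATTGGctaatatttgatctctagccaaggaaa
Ltf: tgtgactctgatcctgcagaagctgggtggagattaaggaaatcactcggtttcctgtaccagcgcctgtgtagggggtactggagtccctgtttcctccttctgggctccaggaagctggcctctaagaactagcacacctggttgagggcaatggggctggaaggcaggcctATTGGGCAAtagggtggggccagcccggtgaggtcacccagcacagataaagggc
Fcnb: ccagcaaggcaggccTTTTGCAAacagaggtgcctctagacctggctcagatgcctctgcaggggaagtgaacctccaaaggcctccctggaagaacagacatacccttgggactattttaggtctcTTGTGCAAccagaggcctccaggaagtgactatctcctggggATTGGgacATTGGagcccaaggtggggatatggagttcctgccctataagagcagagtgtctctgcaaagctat
Elane: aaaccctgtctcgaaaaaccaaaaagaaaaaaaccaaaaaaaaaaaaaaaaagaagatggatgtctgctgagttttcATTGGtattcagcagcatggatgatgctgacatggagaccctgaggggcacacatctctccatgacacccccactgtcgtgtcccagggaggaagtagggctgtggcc
Mcm5: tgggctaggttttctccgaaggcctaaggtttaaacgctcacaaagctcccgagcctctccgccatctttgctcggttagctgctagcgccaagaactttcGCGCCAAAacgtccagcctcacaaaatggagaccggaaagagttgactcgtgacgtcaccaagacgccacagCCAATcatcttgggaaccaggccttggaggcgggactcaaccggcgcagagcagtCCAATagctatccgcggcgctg
Top2a: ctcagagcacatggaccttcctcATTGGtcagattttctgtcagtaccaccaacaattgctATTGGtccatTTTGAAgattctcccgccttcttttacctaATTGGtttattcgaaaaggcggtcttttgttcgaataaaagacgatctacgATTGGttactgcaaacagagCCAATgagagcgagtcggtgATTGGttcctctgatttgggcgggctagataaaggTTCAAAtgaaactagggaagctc
Cdk1: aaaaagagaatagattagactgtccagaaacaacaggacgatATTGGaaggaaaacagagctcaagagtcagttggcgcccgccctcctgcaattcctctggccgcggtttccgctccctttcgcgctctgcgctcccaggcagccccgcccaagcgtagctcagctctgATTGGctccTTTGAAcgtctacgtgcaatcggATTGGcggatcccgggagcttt

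Distances are counted from the RefSeq start, which lies beyond the last printed base where a line was shortened. In the Ltf promoter the C/EBP match starts 75 bases before that start and overlaps a CCAAT match. Ngp has a C/EBP match 138 bases before its start, and Fcnb has matches 235 and 123 bases before. Mcm5 has an E2F match 149 bases before its start, but Pcna, another S phase gene, had no match to any motif in 116 bases. Bases just past the Mcm5 start were not found at the start of a GENCODE transcript, while those of the other genes shown were. Over windows of 250 bases before the start, the C/EBP letters occurred in 6 of 19 secondary granule promoters (31.6%), 0 of 11 primary granule promoters and 0 of 62 G2 and mitosis promoters, against 9.56% of 32851 promoters. The CHR letters occurred in 27 of 62 G2 and mitosis promoters (43.5%) and 5 of 45 S phase promoters (11.1%), against 16.0% of all. CCAAT was in 46 of the 62 (74.2%), against 33.8% of all, and an E2F match in 8 of the 45 S phase promoters (17.8%), against 1.30% of all. RefSeq promoters were found for 18 of 20 secondary granule, 10 of 13 primary granule, 38 of 52 S phase and 59 of 72 G2 and mitosis genes. A match describes the letters and shows no binding.

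The cell cycle transcripts shifted along the same axis, from replication towards mitosis. The summed S phase list of 52 genes took 0.442% to 0.453% of UMIs in the lower tertile, 0.369% to 0.374% in the middle and 0.248% to 0.289% in the upper, with no overlap between tertiles over the 4 libraries. The G2 and mitosis list without Mki67 and Top2a took 1.58% to 1.70%, 1.90% to 2.08% and 1.95% to 2.16%. Of 51 measured S phase genes, 41 were lower with each tertile in all 4 libraries and 0 higher, against 25.7% and 3.13% of all genes. Of 70 G2 and mitosis genes, 19 were higher with each tertile and 1, Cenpm, was lower.

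Among S phase genes, Mcm3, another helicase subunit, went from 119 ± 4.40 to 74.9 ± 2.71 and 52.6 ± 4.46 CPM. Dut, the enzyme that keeps uracil out of DNA, went from 301 ± 18.3 to 194 ± 5.70 and 123 ± 16.4 CPM. Rrm2, the small subunit of ribonucleotide reductase, was highest in the middle tertile at 281 ± 10.5 CPM, with 258 ± 18.2 in the lower and 202 ± 17.6 in the upper. Ube2c, the ubiquitin-conjugating enzyme of the anaphase-promoting complex, went from 433 ± 36.4 to 550 ± 60.7 and 709 ± 46.4 CPM. Ccnb1, cyclin B1, went from 65.6 ± 4.60 to 76.6 ± 9.21 and 96.5 ± 8.51 CPM, and Cenpf, a kinetochore protein, from 195 ± 14.5 to 258 ± 34.6 and 322 ± 28.1 CPM. Mki67 itself did not follow this order, at 738 ± 56.4, 955 ± 57.4 and 912 ± 36.8 CPM. Only 0.906% to 1.23% of members of a library held more S phase than G2 and mitosis UMIs. That share was 2.46% to 3.67% after thinning to 2000 UMIs, and the lists differ in size and abundance.

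**Figure D3:**
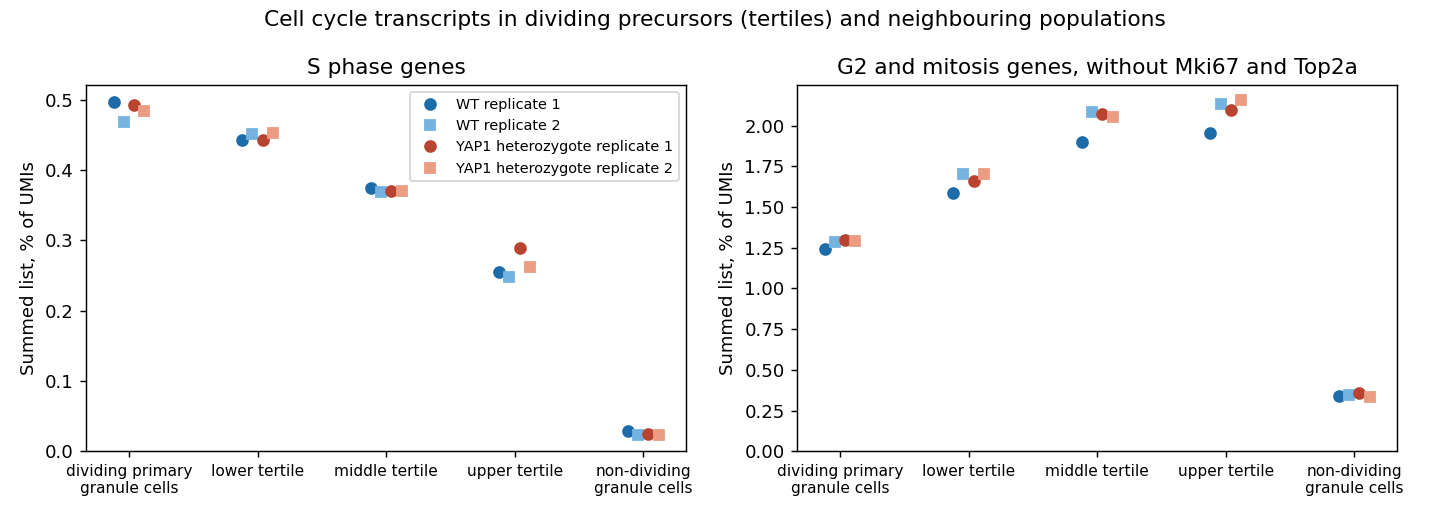
Summed UMIs of the S phase list (left) and of the G2 and mitosis list without Mki67 and Top2a (right) as percent of the UMIs of a population, one point per library, in dividing primary granule cells, the 3 tertiles of members and non-dividing granule cells. The S phase share goes down over the tertiles, from 0.442% to 0.453% in the lower to 0.248% to 0.289% in the upper, and both lists are lowest in non-dividing cells.

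Of 26 measured cyclins, kinases and cell cycle inhibitors, 5 were lower with each tertile in all 4 libraries (Btg2, Ccnd2, Cdk4, Cdk6 and E2f4) and 3 were higher (Ccnb1, Ccnb2 and Cdkn2d), against 25.7% and 3.13% of all genes. Cdk6 and Cdk4, the kinases that cyclin D activates, went from 140 ± 22.1 to 33.1 ± 1.76 CPM and from 78.0 ± 4.08 to 18.5 ± 1.12 CPM between lower and upper tertile. Ccnd2, cyclin D2, went from 21.9 ± 8.05 to 0.668 ± 0.273 CPM, but Ccnd3, cyclin D3, was at 314 ± 31.7 and 368 ± 28.5 CPM. Myc, the growth-promoting transcription factor, went from 15.9 ± 2.46 to 1.59 ± 0.464 CPM. Cdkn2d, the inhibitor of Cdk4 and Cdk6 known as p19INK4d, was higher with each tertile in all 4 libraries, at 146 ± 12.7, 228 ± 29.3 and 244 ± 22.3 CPM. Among transcription factors, Cebpe was higher with each tertile in all 4 libraries (495 ± 48.4, 605 ± 39.7 and 643 ± 36.0 CPM), and Cebpa, which acts at the earlier granulocyte-monocyte stage, went from 22.5 ± 4.29 to 5.21 ± 2.25 and 3.34 ± 0.265 CPM. Gfi1, a repressor needed for neutrophil commitment, was at 42.9 ± 6.58, 29.4 ± 5.45 and 29.5 ± 5.42 CPM.

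The lower tertile also had higher levels of marker genes of other kinds of cell. Monocyte-associated Ms4a6c and F13a1 (coagulation factor XIII) stood at 86.3 ± 10.8 and 74.9 ± 18.8 CPM there and at 2.00 ± 0.600 and 2.20 ± 0.205 CPM in the upper tertile. The 8 monocyte markers summed to 1888 to 2177 CPM in the lower and 1081 to 1162 CPM in the upper tertile, and to 3223 to 3656 CPM in dividing primary granule cells. B lineage markers summed to 365 to 1318 CPM against 69.0 to 100 CPM, erythroid markers to 671 to 2454 against 52.8 to 319 CPM, and mature neutrophil markers to 1466 to 1943 against 275 to 703 CPM. No defining marker of these lists was at 0 in the lower tertile. Lower-tertile cells were larger in UMIs, with medians of 20662 to 24477 against 16002.5 to 18103, and had 1.60% to 1.95% mitochondrial UMIs against 0.766% to 0.928%. Leaving out members that failed the stricter filter on other-type markers left 310, 210, 230 and 333 cells. The lower tertile of these had median granule shares of 9.65% to 9.98%, so few early members remained, and 0 genes were higher and 7 lower by 2-fold. Whether these transcripts were made by the members or came from other cells was not tested, nor was the part of other cells' RNA in the differences between tertiles.

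Against non-dividing granule cells of the same libraries (Camp, Ngp and Ltf at 1% or more, 0 UMIs of Mki67 and Top2a, 9560 cells), members had higher levels of cell cycle genes and lower levels of most late neutrophil genes. Of 6762 genes, 1854 (27.4%) were at least 2-fold higher and 491 (7.26%) at least 2-fold lower in members in all 4 libraries. The median log2 ratio over all 6762 was 0.41. Since the rule splits these cells on Mki67 and Top2a, the counts are a description. All 50 measured S phase genes and 68 of 70 G2 and mitosis genes were higher, with median log2 ratios of 3.95 and 5.01, and 0 were lower. Of 17 histone genes, 13 were higher. H1f5, a linker histone, was at 752 ± 124 CPM in members and 5.68 ± 1.54 in non-dividing cells, and H3c3, a replication-coupled H3 gene, at 461 ± 47.8 and 1.72 ± 0.797 CPM. Histone genes are near-identical copies, so the assignment of reads among them is uncertain.

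Late genes were low in members. Mmp8, neutrophil collagenase, stood at 136, 111, 97.4 and 91.8 CPM in members of the 4 libraries and at 2615 ± 138 CPM in non-dividing cells. Retnlg, a resistin-like secreted protein, was at 900 ± 186 against 17822 ± 992 CPM, and Mmp9, gelatinase B, at 140 ± 28.9 against 2123 ± 30.9 CPM. B cells held 54.7 to 122 CPM of Mmp8, 773 to 1597 CPM of Retnlg and 37.8 to 70.3 CPM of Mmp9, by library. Of 11 gelatinase granule genes 7 were lower and 0 higher, with a median log2 ratio of -2.63, and of 19 late neutrophil genes 15 were lower and 0 higher, with a median of -1.97. Fpr1, the formyl peptide receptor, was at 7.70 ± 2.24 against 131 ± 5.43 CPM, and Cxcr2, the chemokine receptor of marrow egress, at 48.8 ± 5.63 CPM in members with 418 to 437 CPM in non-dividing cells. Cxcr4, the marrow retention receptor, differed less, at 94.5 ± 9.83 CPM in members and 110 to 128 CPM in non-dividing cells.

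Of the 16 secondary granule genes outside the rule, 2 were at least 2-fold higher in members in all 4 libraries, 2 lower and 12 passed neither limit (65.3% of all genes passed neither), with a median log2 ratio of -0.47. Fcnb was one of the 2 higher, at 1423 ± 58.4 CPM against 128 to 147 CPM. Chil3 was at 7488 ± 723 CPM against 3371 to 4492 CPM, and Lcn2 at 12740 ± 1296 CPM against 16595 to 20748 CPM. Cebpe was at 573 ± 41.6 CPM in members and 263 to 303 CPM in non-dividing cells, in all 4 libraries higher in members. Cdkn1b, the inhibitor p27, was lower in members at 67.2 ± 2.91 CPM against 93.6 to 114 CPM. Elane was at 2311 ± 309 against 33.9 ± 7.38 CPM. Median depth was 7286 to 8276 UMIs in non-dividing cells, less than in members. When both populations were limited to Camp, Ngp and Ltf of 10% or more, 1040 genes were higher and 223 lower.

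Against dividing primary granule cells (Elane, Mpo, Prtn3 and Ctsg at 1% or more, Camp, Ngp and Ltf under 1%, at least 3 UMIs of Mki67 and Top2a, 1492 cells), members had switched granule genes. Of 7661 genes, 465 (6.07%) were at least 2-fold higher and 1682 (22.0%) at least 2-fold lower in members in all 4 libraries. The rule and this definition both use granule genes, so the counts are a description. All 16 secondary granule genes outside the rule were higher in members, with a median log2 ratio of 3.18. Lcn2 was at 12740 ± 1296 against 175 ± 7.16 CPM, Chil3 at 7488 ± 723 against 260 ± 60.7 CPM, and Cd177, a neutrophil surface antigen, at 859 ± 37.6 against 18.5 ± 2.02 CPM. Of 9 gelatinase granule genes 8 were higher and 0 lower, among them Mmp25, a membrane-anchored metalloprotease, at 64.0 ± 3.53 against 1.33 ± 0.552 CPM. Cebpe was at 573 ± 41.6 CPM against 156 to 190 CPM.

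Of 25 genes of translocation and glycosylation in the endoplasmic reticulum, 23 were at least 2-fold lower and 0 higher, with a median log2 ratio of -1.73. Hspa5, the chaperone BiP, was at 361 ± 39.4 CPM in members and 1306 to 1472 CPM in primary granule cells. Among the genes with the largest differences, Srm, spermidine synthase, was at 12.9 ± 3.06 against 171 ± 9.30 CPM, and Mif, a cytokine also made as an abundant cytosolic enzyme, at 65.9 ± 9.77 against 743 ± 41.0 CPM. Phgdh, the entry enzyme of serine synthesis, was at 14.4 ± 3.75 against 177 ± 7.26 CPM, and Cd34, a progenitor surface antigen, at 3.48 ± 0.965 against 65.7 ± 8.73 CPM. Cdk6 was at 78.5 ± 11.2 CPM against 334 to 400 CPM. The median log2 ratio was -0.54 for 52 S phase genes, 48 of them within 2-fold or not past it in all 4 libraries, and 0.60 for 70 G2 and mitosis genes, 63 of them likewise. Over all 7661 genes of this comparison the median was -0.43, close to that of the S phase genes.

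**Figure D4:**
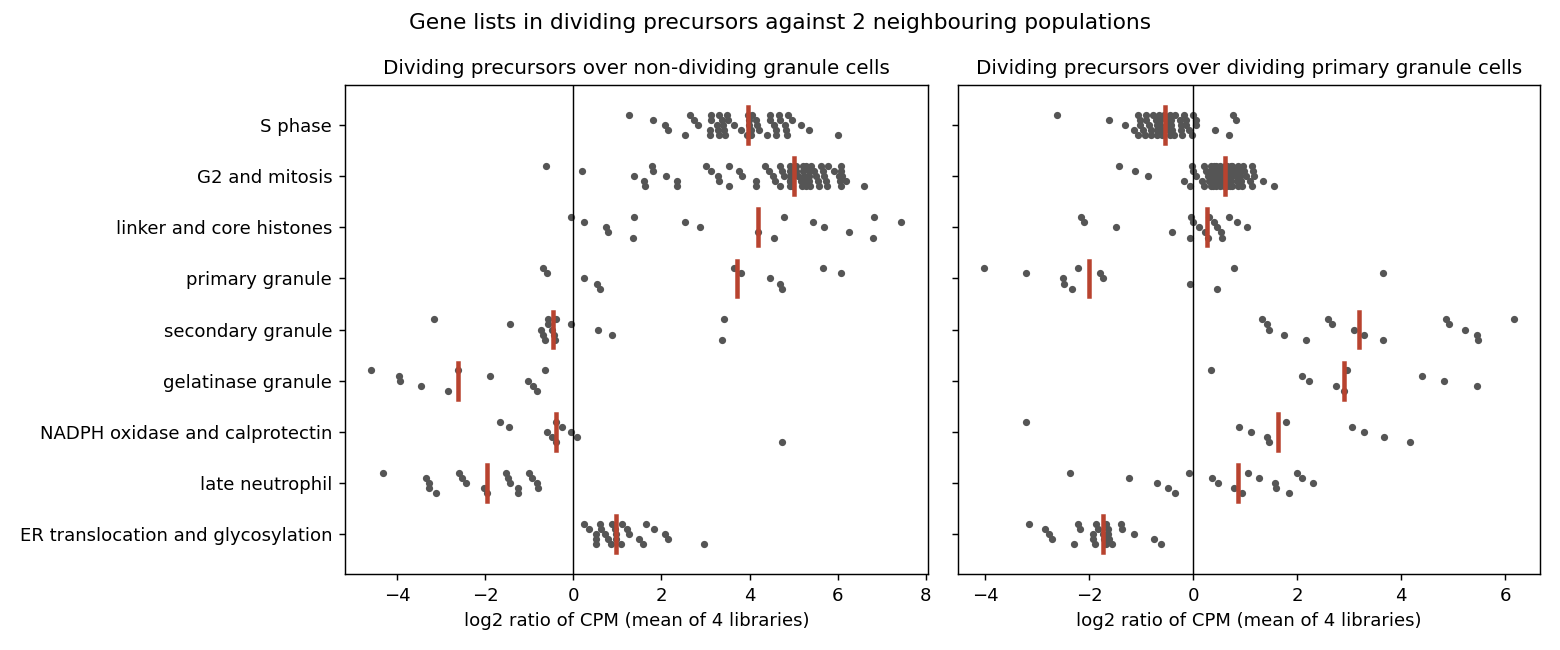
Log2 ratio of CPM (pseudocount 1 CPM, mean of the 4 libraries) of members over non-dividing granule cells (left) and over dividing primary granule cells (right), one grey point per gene of each list without the 5 genes of the rule, and a red bar at the list's median. The S phase and G2 and mitosis medians are 3.95 and 5.01 on the left, and the secondary granule median is 3.18 on the right.

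The genotypes had similar shares of dividing neutrophil precursors. Members made up 9.70%, 8.31%, 9.90% and 7.98% of kept barcodes. Their 95% Wilson intervals, which cover counting error only, were 9.20 to 10.2, 7.83 to 8.83, 9.36 to 10.5 and 7.54 to 8.45. Replicate 1 was above replicate 2 in both genotypes, and the groups overlapped. The means were 9.01% ± 0.981 and 8.94% ± 1.36 (SD, n = 2 each, two-sided exact permutation p = 1.0). Of cells past the granule limit, 30.2%, 27.2%, 29.8% and 27.9% were dividing (exact permutation p = 1.0). With 2 libraries against 2 the smallest p this test can give is 0.333. Ddx3y, which lies on the Y chromosome, was at 49.0 and 35.1 CPM in replicate 1 of WT and YAP1 heterozygotes, and Xist at 613 and 598 CPM in replicate 2, so replicate number coincides with sex in both genotypes.

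The S phase list took 0.366%, 0.366%, 0.375% and 0.369% of member UMIs. The groups did not overlap, but differed by 0.00628 percentage points (exact permutation p = 0.333). They did overlap without members of 1% or more other-lineage UMIs, a set chosen after seeing the data. The shares were then 0.363%, 0.359%, 0.372% and 0.362% (exact permutation p = 0.667). The G2 and mitosis list took 1.79%, 1.95%, 1.91% and 1.95%, with overlapping groups (exact permutation p = 0.667).

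In the test across all genes, 1 of 11611 genes tested (0.00861%) passed between genotypes (edgeR quasi-likelihood test, Benjamini-Hochberg adjusted p under 0.05), and 436 had an unadjusted p under 0.05. This fit has no term for replicate number, which coincides with sex. With that term, which leaves 1 residual degree of freedom, 54 genes were higher and 184 lower in YAP1 heterozygotes. The gene that passed in both fits was Thbs1 (ENSMUSG00000040152, chromosome 2, 118111876 to 118127133, GRCm38), which encodes thrombospondin-1, an adhesive glycoprotein also stored in platelets. Its level in members was 86.3, 86.9, 38.6 and 28.5 CPM. Both YAP1 heterozygote libraries were below both WT libraries. The log2 fold change of YAP1 heterozygote over WT was -1.34 (SE 0.12, edgeR adjusted p = 0.044). Thbs1 had a UMI in 33.9% and 35.5% of WT members and 17.9% and 16.8% of YAP1 heterozygote members. The 10 members with the most Thbs1 held 18.7%, 21.5%, 32.7% and 26.7% of its UMIs in members, by library. B cells, with lower depth, held 4.36% to 9.94% with a UMI and 0.142 to 0.391 Thbs1 UMIs per cell, while members held 1.67, 1.81, 0.817 and 0.545. In CPM, which accounts for depth, B cells stood at 66.0, 52.6, 74.2 and 28.6. By that measure WT members were above B cells of their library, but YAP1 heterozygote members were not.

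Thbs1 was far higher in non-dividing cells, and mature neutrophil markers also had lower values in YAP1 heterozygote members. Non-dividing granule cells had 1305, 1308, 905 and 534 CPM. Within members Thbs1 was at 83.3 ± 33.1 CPM in the lower tertile and 33.1 ± 26.2 CPM in the upper, so its level did not climb with granule content. The difference between genotypes was not shown to differ between members and non-dividing cells (interaction log2 -0.48, edgeR adjusted p = 0.321) without the replicate term, and passed with it (-0.48, edgeR adjusted p = 0.000862). The 6 mature neutrophil markers, none at 0, summed to 1372, 1308, 937 and 972 CPM, and 48, 42, 31 and 26 members carried 1% or more of their UMIs in them. Without these members the 6 markers summed to 938, 620, 503 and 609 CPM. Thbs1 was then at 69.4, 60.0, 28.3 and 21.1 CPM, a log2 fold change of -1.37, and no gene passed (edgeR adjusted p = 0.0579). Without doublets it was at 68.2, 67.6, 20.1 and 21.1 CPM and passed. The part of mature neutrophil RNA in the difference was not tested further.

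Several other genes, among them the late genes Retnlg and Mmp9, had lower values in YAP1 heterozygote members that did not pass without the replicate term. They passed with it and, for the 6 genes from Retnlg to Zbtb11, also with no filter on low counts. The adjusted p-values that follow are without that term unless it is named. Retnlg was at 1057, 1064, 732 and 747 CPM (log2 -0.49, SE 0.098, edgeR adjusted p = 0.829, with the replicate term 5.08e-05). In B cells Retnlg stood at 1042, 773, 1597 and 1086 CPM, below WT members but above YAP1 heterozygote members. Mmp9 was lower in B cells than in members, at 37.8 to 70.3 CPM by library. Mmp9 was at 172 and 157 against 112 and 119 CPM, and Plaur, the urokinase receptor, at 182 and 171 against 124 and 128 CPM, both with an edgeR adjusted p of 0.829. Ets2, a transcription factor, Clec4e, the C-type lectin Mincle, and Zbtb11 also had non-overlapping lower values (log2 -0.60, -0.60 and -0.45). Mmp9, Plaur, Ets2, Clec4e and Zbtb11 had edgeR adjusted p-values of 1.45e-05, 3.44e-05, 2.62e-09, 7.11e-09 and 6.71e-05 with the replicate term. Cxcl2, a neutrophil chemokine, was at 219, 75.2, 34.8 and 49.4 CPM, so most of its difference came from WT replicate 1. Of 19 late neutrophil genes, 15 had negative log2 fold changes with a median of -0.19, and 0 passed, against 8 lower with the replicate term (edgeR), among them Retnlg, Cxcl2, Il1b and Trem1. Of 25 genes of NF-kB and inflammatory cytokines, 19 were negative with a median of -0.21, and 0 passed, against 9 lower and 1 higher with the replicate term. The median over all 11611 genes was 0.004. Of these, 5693 were negative, and with the replicate term 184 were lower and 54 higher. Among all genes 17.5% had both YAP1 heterozygote values below both WT values and 10.5% the reverse. In the late neutrophil list the counts were 9 and 0 of 19 genes, and in the NF-kB list 9 and 3 of 25.

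**Figure D5:**
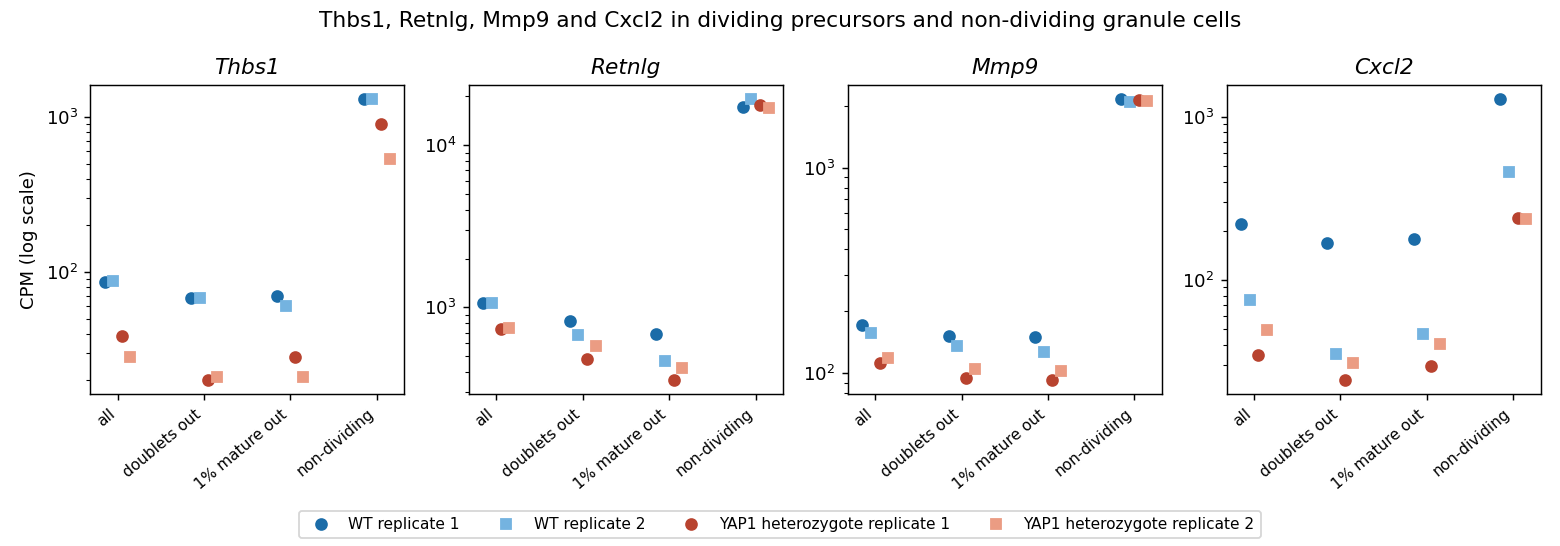
CPM on a log axis of Thbs1, Retnlg, Mmp9 and Cxcl2, one point per library, in all members, members without doublets, members without cells with 1% or more mature neutrophil UMIs, and non-dividing granule cells. Thbs1 is at 86.3, 86.9, 38.6 and 28.5 CPM in all members, and the genotypes keep this order in the 4 sets.

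Granule and cell cycle genes are counted here without the 5 genes of the rule. Of 16 secondary granule genes 15 had positive log2 fold changes with a median of 0.09, of 12 primary granule genes 6 were positive with a median of -0.01, and 0 passed in either list. Of 70 G2 and mitosis genes 61 were positive with a median of 0.09, and of 52 S phase genes 42 with a median of 0.07, again with 0 passing. With the replicate term 1 secondary granule gene (Ceacam10, lower) and 1 S phase gene (Mcm10, higher) passed in these 4 lists. Of all 11611 genes 5918 were positive, and with the replicate term 54 were higher and 184 lower. Groups did not overlap, with YAP1 heterozygotes higher, for 21 of the 70, against 10.5% of all genes, and WT replicate 1 had the lowest G2 and mitosis share of the 4 libraries. Elane was at 2337, 2440, 2591 and 1874 CPM and Cebpe at 514, 589, 578 and 611 CPM. The smallest p-values among genes higher in YAP1 heterozygotes were those of Tnfsf13b, the B cell survival factor BAFF (41.1 and 37.9 against 48.0 and 45.0 CPM), and of the histone genes H2ac10 and H2ac20, none of which passed (edgeR adjusted p = 0.998). With the replicate term their edgeR adjusted p-values were 0.0216, 0.0251 and 0.00696.

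In the Hippo pathway kinases restrain YAP1, and 11 of 22 genes of its list were high enough to be tested in members. Yap1 and its paralogue Wwtr1 had 0 UMIs in members of all 4 libraries, and so had Tead3, Tead4 and the YAP target genes Ankrd1 and Ccn1. A count of 0 allows up to 3 counts, or 0.123 to 0.147 CPM, by library. The level of Yap1 therefore checks no genotype label here. The kinase gene Stk4 had means of 89.3 (WT) and 84.8 CPM (YAP1 heterozygote), Lats1 at 14.0 and 13.9 CPM and Lats2 at 25.1 and 25.4 CPM, and 0 of 11 tested genes of the list passed. Myh9, non-muscle myosin heavy chain IIA, was at 380, 364, 413 and 373 CPM (log2 0.11, SE 0.09, edgeR adjusted p = 0.998).

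The test of whether a genotype difference in members differs from that in non-dividing granule cells of the same libraries called 5 of 11883 genes (0.0421%, edgeR quasi-likelihood test), 1 with a more positive difference in members (0.00842%) and 4 with a more negative one (0.0337%). They were Hbb-bt and Hbb-bs (beta globins), Rabgef1 (a Rab5 exchange factor), Retnlg and Cd79a (a B cell receptor subunit). With cells of 1% or more UMIs in other-lineage markers left out of both populations, 0 genes passed (edgeR, 620 genes at an unadjusted p under 0.05). The interaction was then 0.11 for Hbb-bt and -0.18 for Hbb-bs, but stayed at 0.91 for Rabgef1, -0.46 for Retnlg and -0.62 for Cd79a. With the replicate term 50 genes were more positive and 44 more negative in members, and these 5 were among them.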

How the data were processed

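The authors deposited UMI counts per gene and barcode for each library, from 10x 3′ libraries (kit version 3.1, per the labels' protocols), with 32544 genes and no normalization. Per the file headers Cell Ranger 5.0.0 wrote the counts, but version 3.0.0 stands in the submitters' processing notes, beside Seurat 4.3.0, GRCm38 and mm10, so the version is not settled. Barcodes were chosen by the stated rule, and doublets were called with Scrublet (scanpy 1.11.5, expected rate 0.8% per 1000 barcodes). UMIs were summed per library and population, and edgeR 4.0.16 tested the genotypes (quasi-likelihood, filterByExpr, TMM, Benjamini-Hochberg over all genes, threshold 0.05), with DESeq2 1.42.0 as an alternative. The method was tested on simulated counts. Populations and tertiles were described by log2 ratios of CPM (pseudocount 1 CPM) within each library, for genes of at least 10 CPM, with no test. Shares were compared by exact permutation over 4 libraries.

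The members and gene lists were chosen with earlier results of these data known. Named genes were the called ones, or up to 6 per direction with the lowest p (values only), the 12 with the largest differences per direction in each description, the most abundant members of each list and a set of marker genes; other genes named within a list or pathway were chosen after their values were seen. Gene positions are from GENCODE M21. The labels do not say that replicates are separate animals, though replicate number coincides with sex in both genotypes. The p-values measure the spread between these libraries. Mx1, Mx2 and Azu1 were not matched in the gene names used.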

Additional observations from a re-analysis of the deposited data

Results flagged for a closer look

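For 5 genes the difference between genotypes in dividing precursors differed from that in non-dividing granule cells of the same libraries, by the interaction term of the edgeR quasi-likelihood test. Hbb-bt had an interaction of -1.43 on the log2 scale (adjusted p = 6.77e-06), with 53.4, 161, 107 and 199 CPM in members and 17.5, 57.5, 98.8 and 185 CPM in non-dividing cells, in the library order of the report. Hbb-bs had -0.78 (edgeR adjusted p = 0.017). The erythroid markers summed to 296, 1042, 733 and 1448 CPM in members, none of them at 0, and their part in the result was not tested. Cd79a had -0.64 (edgeR adjusted p = 0.041), with 27.2, 25.5, 16.3 and 21.8 CPM in members. B lineage markers summed to 611, 391, 438 and 207 CPM in members.

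Retnlg had -0.45 (edgeR adjusted p = 0.041), lower in YAP1 heterozygote members but with overlapping groups of 17275 and 19234 against 17767 and 17013 CPM in non-dividing cells. B cells of these libraries had 1042, 773, 1597 and 1086 CPM of Retnlg. Rabgef1 had 0.88 (edgeR adjusted p = 0.041). It was at 29.7 and 23.1 against 17.8 and 16.4 CPM in members and at 76.5 and 44.7 against 24.0 and 17.9 CPM in non-dividing cells, so both populations had lower values in YAP1 heterozygotes and the gap was wider in non-dividing cells. Without doublets 1 gene passed, Hbb-bt, and without cells rich in other-lineage markers 0 passed. Both filters were applied to members and to non-dividing cells. Rabgef1 stayed at 0.85 and 0.91 in these sets and Retnlg at -0.47 and -0.46. Cd79a was at 0.12 without doublets and at -0.62 without cells rich in other-lineage markers. Hbb-bt was at -1.59 and 0.11 and Hbb-bs at -0.86 and -0.18.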

How the results depend on the processing

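The difference in the share of kept barcodes (-0.06 percentage points, YAP1 heterozygote minus WT) changed sign to 0.034 without doublets, 0.0626 after thinning, 0.198 at a granule limit of 5%, 0.117 at 6 UMIs of Mki67 and Top2a and 0.165 without other-type markers, and ranged from -1.02 to 0.898 without single libraries. That of granule cells ranged from -1.30 to 1.70 without single libraries, the G2 and mitosis share from -0.0139 to 0.142, and the share of cells with more S phase UMIs from -0.263 to 0.0258, with 0.032 without doublets and 0.187 at 6 UMIs.

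Between genotypes 0 genes were higher and 1 lower. The counts were 23 higher and 128 lower with no filter on low counts. The lower count was 6 with DESeq2, 3 without members carrying other-type markers and 0 without members of 1% mature neutrophil UMIs, a set chosen after seeing the data. With the replicate block 54 genes were higher and 184 lower. The labels do not say what a shared replicate number means, and 2 pairs are too few to settle it from the data, but it coincides with sex in both genotypes and deviations of same-numbered libraries correlated (0.337 over 5229 genes). Leaving out single libraries gave 0 to 11 higher and 10 to 46 lower, with a lone library assumed to vary like the other group. Thbs1 passed in 14 of 15 alternatives, its log2 fold change lying between -1.91 and -1.18 and its adjusted p between 1.96e-40 and 0.0579.

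The interaction had 1 higher and 4 lower genes. It gave 29 and 40 with no filter, 50 and 44 with the replicate block and 0 and 1 without doublets. The counts were 0 and 2 without members rich in mature neutrophil UMIs. They were 0 and 0 without cells of either population rich in other-lineage UMIs (both sets chosen after seeing the data). The higher count was 0 without TMM and the lower 7 without other-type markers. Leaving out single libraries gave 0 to 43 higher and 4 to 29 lower. Hbb-bt turned to 0.281 without other-type markers and 0.111 without cells rich in other-lineage UMIs. Without doublets Cd79a turned to 0.122 and Cd79b to 0.0334. With a pseudocount of 10 CPM, non-dividing cells gave 1072 higher and 306 lower genes, primary granule cells 291 and 912, and the tertiles 321 lower. At 10% granule UMIs in both, the former counts were 1040 and 223. The tertiles gave 0 higher and 7 lower without other-type markers, 1285 lower with genes of at least 1 CPM (chosen after seeing the data) and 17 to 26 higher without single libraries. The cause was not tested in these cases.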

Other observations

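Receptor genes were also described over the tertiles of granule content, without a test. Of 13 growth factor and chemokine receptor genes, 5 were lower with each tertile in all 4 libraries and 0 higher, against 25.7% and 3.13% of all genes. Csf3r, the receptor of the granulocyte growth factor G-CSF, was at 97.1 ± 5.64, 77.1 ± 7.53 and 67.2 ± 3.99 CPM (SD, n = 4 libraries), yet at 197 ± 10.1 CPM in non-dividing granule cells. Csf2ra, a chain of the GM-CSF receptor, was at 159 ± 12.8, 127 ± 12.6 and 117 ± 14.0 CPM, and Ccr2, a monocyte chemokine receptor, at 39.4 ± 5.60, 2.82 ± 1.68 and 1.23 ± 0.360 CPM. Kit, the stem cell factor receptor, was at 32.7 ± 6.64, 21.4 ± 2.58 and 20.1 ± 3.23 CPM. Cxcr4 had 88.1 ± 15.4, 97.3 ± 7.43 and 99.9 ± 8.67 CPM.

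Of 20 immediate early genes, 9 were lower with each tertile in all 4 libraries and 0 higher, against 25.7% and 3.13% of all genes. Junb, a subunit of the AP-1 transcription factor, was at 187 ± 24.2, 111 ± 28.1 and 77.6 ± 6.49 CPM, and at 557 ± 69.6 CPM in non-dividing cells. Fos, its partner, was at 359 ± 70.2, 185 ± 51.9 and 151 ± 57.7 CPM. Marker transcripts of other cell types were also higher in the lower tertile, and the part of other cells' RNA in these values was not tested.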
